A study of Mus musculus with 2 samples.

Results

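The synaptic vesicle release machinery was followed here as 31 genes of the 55450 in the matrices. They were taken as a fixed list of genes with a role in docking, priming, calcium sensing and fusion of synaptic vesicles, and not by their values: Syt1, Syt2, Syt4, Syt7, Vamp1, Vamp2, Unc13a, Unc13b, Unc13c, Rims1, Rims2, Syn1, Syn2, Syn3, Cplx1, Cplx2, Rab3a, Rab3b, Rab3c, Bsn, Pclo, Erc1, Erc2, Sv2a, Sv2b, Sv2c, Cadps, Cadps2, Snap25, Stx1a and Stxbp5. The data were single-nucleus RNA profiles of the ventrolateral periaqueductal gray (vlPAG), a midbrain column in which GABAergic cells take part in feeding control. Wild-type C57/BL6J mice received either a normal food diet (NFD) or a high-fat diet (HFD) for 7 weeks from 8 weeks of age, and each diet gave 1 droplet library from the pooled tissue of 18 mice, with a capture target of 8000 nuclei. The questions were which paralogue each kind of neuron used and whether the levels differed between the libraries.

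The NFD library kept 7500 nuclei with more than 500 unique molecular identifiers (UMIs, 1 per captured RNA molecule) and under 20% mitochondrial counts, at a median of 4504.5 UMIs, and the HFD library kept 6322 nuclei at a median of 7347.5. The libraries differed in ways other than the diet label. Malat1, a nuclear noncoding RNA, took 4.43% of NFD and 3.02% of HFD UMIs, mitochondrial RNA took 0.552% and 0.481%, and 12 barcodes were kept in both libraries, none of them with identical counts. With 1 library per diet no test between diets was possible. UMIs were summed over the nuclei of a class in a library and given as counts per 1000000 UMIs of that sum (CPM). Every interval below is at 95%, is exact (Poisson, conditional binomial or Clopper-Pearson) and covers counting error only, not the spread between mice or libraries. A difference was called when its interval lay wholly beyond 0.32 on the log2 scale, in the same direction in both libraries for a difference between classes, and the gene had at least 100 UMIs, and the share of all genes called by the same rule is given with the counts of each comparison.

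A synaptic vesicle is docked at the active zone by scaffold proteins (RIM, bassoon, piccolo and ELKS, the latter encoded by Erc1 and Erc2), primed by Munc13 proteins (Unc13a, Unc13b, Unc13c), and fused by a SNARE complex of synaptobrevin (Vamp1, Vamp2), SNAP-25 and syntaxin. Synaptotagmins sense calcium, complexins clamp and assist fusion, Rab3 GTPases and synapsins hold and deliver vesicles, SV2 proteins are vesicle membrane glycoproteins, and CAPS proteins (Cadps, Cadps2) prime dense-core vesicles that carry monoamines and peptides. Most of these proteins come as paralogues from separate genes, and neurons of different transmitter use them in different mixtures.

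The most counted gene of the SV2 and of the CAPS family was not the same in every neuron class, so the bases before these gene starts are printed to show how the paralogues differ there. Sequences are the 250 bases before the outermost listed start, 5′ to 3′ on the gene's strand, from RefSeq on GRCm38.p6 (for Sv2b the farthest upstream of 4 starts), with capitals marking any match to the motifs named after them.
Sv2a (chr3:96180977-96181226, plus strand): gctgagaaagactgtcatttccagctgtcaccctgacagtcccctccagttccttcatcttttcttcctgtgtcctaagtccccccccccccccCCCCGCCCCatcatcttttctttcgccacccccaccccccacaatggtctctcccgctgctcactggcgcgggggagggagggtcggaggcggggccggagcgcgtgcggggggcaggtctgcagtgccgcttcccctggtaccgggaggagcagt
Sv2b (chr7:75309263-75309512, minus strand): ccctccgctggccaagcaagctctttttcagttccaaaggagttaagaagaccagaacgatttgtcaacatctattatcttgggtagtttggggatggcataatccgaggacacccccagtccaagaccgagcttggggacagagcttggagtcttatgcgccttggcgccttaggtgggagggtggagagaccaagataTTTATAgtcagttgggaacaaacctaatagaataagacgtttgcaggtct
Sv2c (chr13:96132578-96132827, minus strand): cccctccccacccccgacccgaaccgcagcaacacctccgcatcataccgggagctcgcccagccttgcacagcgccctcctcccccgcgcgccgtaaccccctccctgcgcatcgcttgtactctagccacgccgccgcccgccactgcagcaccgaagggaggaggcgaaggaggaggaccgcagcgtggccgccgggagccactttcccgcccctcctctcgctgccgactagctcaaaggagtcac
Cadps (chr14:12823080-12823329, minus strand): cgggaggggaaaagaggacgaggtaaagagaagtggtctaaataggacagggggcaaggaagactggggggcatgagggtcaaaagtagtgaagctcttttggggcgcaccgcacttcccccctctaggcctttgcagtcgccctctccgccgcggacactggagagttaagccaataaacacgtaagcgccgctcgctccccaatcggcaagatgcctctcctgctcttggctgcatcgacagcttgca
Cadps2 (chr6:23839422-23839671, minus strand): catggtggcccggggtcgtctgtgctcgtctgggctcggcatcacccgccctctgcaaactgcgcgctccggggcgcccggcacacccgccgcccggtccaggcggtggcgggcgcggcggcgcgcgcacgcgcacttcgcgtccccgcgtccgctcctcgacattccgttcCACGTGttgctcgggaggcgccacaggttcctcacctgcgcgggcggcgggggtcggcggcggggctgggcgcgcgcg
The Sv2b window held 48.8% G and C with 7 CpG dinucleotides, against 66% with 13 for Sv2a and 70.8% with 26 for Sv2c. The Cadps2 window held 78% with 44 CpG dinucleotides, against 58% with 14 for Cadps. Of the 31 genes, 25 had an entry, and Syt4, Syt7, Vamp2, Rims2, Syn3 and Snap25 did not. Both strands were searched for the GC box GGGGCGGGG, the TATA box TATAAA, the E-box CACGTG and TTCAGCACC, which is part of the RE1 element of neuronal genes. The GC box occurred in 9 of the 25 windows (10.6% of 27025 genes), Sv2a among them. The TATA box occurred in those of Sv2b and Rab3b (13% of genes), the E-box in those of Cadps2 and Unc13b (6.04%), and the RE1 part in that of Syn1 (0.292%). Each printed window held at most 1 of these motifs, so none overlapped another, and the Sv2c and Cadps windows held none. A match is a description of the letters only.

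Classes were named from marker genes, after the 31 genes and a wider list had been taken out of the variable genes, so the members did not form the clusters. The GABAergic-like class (clusters 2, 3, 4, 6 and 11) held 2608 NFD and 2097 HFD nuclei, and Gad2, a GABA-synthesizing enzyme, stood at 314 and 329 CPM there against 25.7 and 18.6 CPM in the glutamatergic-like class. The glutamatergic-like class (clusters 0, 9, 12 and 17) held 1726 and 1415 nuclei and had 156 and 161 CPM of the vesicular glutamate transporter Slc17a6, the one marker of that transmitter found in at least 10% of its nuclei, with no marker of its own among the leading genes of its clusters. Cluster 2 was the largest GABAergic-like cluster in NFD (1089 nuclei) and cluster 3 in HFD (586), and cluster 4 also carried Slc17a6. The serotonergic-like class (258 and 166 nuclei) was led by Tph2, at 1611 and 1879 CPM, and the dopaminergic-like class (181 and 114) had Th at 87.5 and 76.6 CPM with Slc6a3 at 21.9 and 26.3 CPM. The granule-like class, led by Gabra6, a GABA-A receptor subunit of cerebellar granule cells, held 10 NFD and 812 HFD nuclei at an HFD median of 1715 UMIs, and it was compared with the other classes in HFD only. A further 1384 NFD and 657 HFD nuclei, in cluster 1, carried both transmitters' markers within 2-fold and are in no class. Cluster 16 (143 and 100 nuclei) and cluster 21 (8 and 60 nuclei, with 572.5 CPM of GABAergic markers) were left unnamed as well.

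The 31 genes together took a larger part of the RNA of monoaminergic and granule-like nuclei than of the other neurons. They held 1.10% of GABAergic-like UMIs in NFD and 1.12% in HFD, and 1.04% and 1.07% of glutamatergic-like UMIs. The serotonergic-like class stood at 1.52% and 1.66%, the dopaminergic-like class at 1.22% and 1.31%, and the granule-like class at 2.09% (2.07 to 2.12) in HFD. Each of the 31 had at least 1 UMI in all of these neuron classes in HFD, though Rab3b had only 1 and Stx1a 3 in the granule-like class. A UMI alone is not read as expression. The genes spanned from 3.90 kb (Vamp2) to 856 kb (Erc2), and reads of nuclear RNA can come from introns, so a share within a family also follows gene length. Shares are therefore compared between classes and never read as a ratio of molecules.

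Of the 31 members, 1 was called higher in the GABAergic-like than in the glutamatergic-like class and 1 lower, in both libraries, which is near the 2.67% and 3.35% of the 12153 genes with enough UMIs. The called pair were both Rab3 genes. Rab3c stood at 410 and 440 CPM in GABAergic-like nuclei against 287 and 304 CPM in glutamatergic-like nuclei, a log2 ratio of 0.51 (0.45 to 0.58) in NFD and 0.53 (0.48 to 0.58) in HFD. Rab3b went the other way, with 13.8 and 12.6 CPM against 21.7 and 20.7 CPM, a log2 ratio of -0.66 (-0.93 to -0.38) and -0.72 (-0.96 to -0.48). These are low levels. In HFD glia Rab3b had 4 of 357583 UMIs in oligodendrocyte-like, 4 of 397960 in microglia-like and 7 of 1460990 in astrocyte-like nuclei. No background level was set for it. The median log2 ratio over the 31 genes was 0.08 in NFD and 0.06 in HFD, beside 0.04 in both libraries over all genes. Without cluster 4, the GABAergic-like cluster with Slc17a6, 2 members were called higher and 2 lower, and the Rab3b call was lost when each nucleus was thinned to 2000 UMIs or weighted equally or when 500 UMIs were required.

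**Figure D1:**
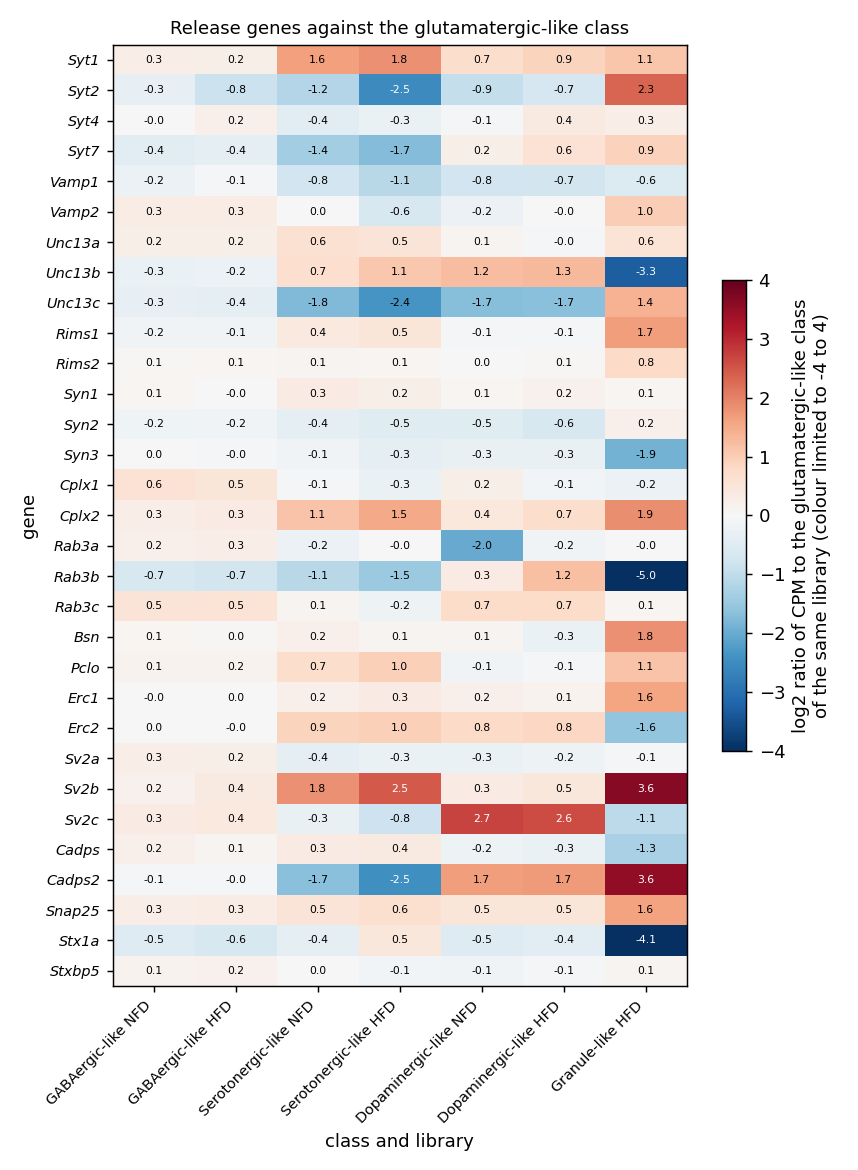
Log2 ratio of CPM of each release gene (rows) in each class and library (columns) to the glutamatergic-like class of the same library. GABAergic-like columns are pale, while Sv2b, Sv2c, Cadps2, Unc13b and Unc13c depart in the monoaminergic or granule-like columns, with Sv2c at 2.69 and 2.62 in the dopaminergic-like class.

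The monoaminergic and granule-like classes departed further. Against the glutamatergic-like class, 9 members were called higher and 5 lower in the serotonergic-like class (4.26% and 7.25% of 10011 genes), and 7 higher and 1 lower in the dopaminergic-like class (3.34% and 4.04% of 9818 genes). Between the 2 monoaminergic classes, 24 members had enough UMIs, and 5 were called higher and 4 lower in the serotonergic-like class (5.81% and 6.61% of 5041 genes). In the granule-like class 15 were called higher and 7 lower than in the glutamatergic-like class of the HFD library, where 13.7% and 22.9% of 10578 genes were called. As a share of the members, the calls in the higher direction stood above those over all genes in each of these 4 comparisons, and the calls in the lower direction did so for the serotonergic-like class against both others but not in the dopaminergic-like and granule-like classes. A call also depends on how well a gene was counted, and no share over genes counted as often as the members is given. With each nucleus thinned to 2000 UMIs, 4 and 3 members were called in the serotonergic-like against the glutamatergic-like class, 3 and 2 against the dopaminergic-like class, and 4 instead of 7 were called lower in the granule-like class.

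The SV2 family changed its leading gene with the class. SV2 proteins are integral glycoproteins of the vesicle that serve as receptors of botulinum toxin, and SV2A binds the drug levetiracetam. Sv2a (ENSMUSG00000038486) took 57.7% of the family's UMIs in GABAergic-like nuclei of NFD and 53.4% in HFD, and 57.2% and 56.0% in glutamatergic-like nuclei. In serotonergic-like nuclei Sv2b (ENSMUSG00000053025) took 60.2% (55.9 to 64.5) and 69.4% (66.4 to 72.4), and in the granule-like class 82.5% (79.9 to 84.9). In dopaminergic-like nuclei Sv2c (ENSMUSG00000051111) took 59.4% (54.2 to 64.4) and 60.2% (55.6 to 64.7). The levels differed as the shares did. Sv2c stood at 194 and 204 CPM in the dopaminergic-like class against 30.01 and 33.2 CPM in the glutamatergic-like class, a log2 ratio of 2.69 (2.44 to 2.94) and 2.62 (2.41 to 2.84), and at 24.2 and 18.7 CPM in the serotonergic-like class. Sv2b stood at 149.7 and 217 CPM in the serotonergic-like class against 42.1 and 39.4 CPM in the glutamatergic-like class and 53.4 and 54.0 CPM in the dopaminergic-like class. Sv2a was called in none of the class comparisons, at 74.6 to 81.0 CPM in the monoaminergic classes, 89.0 CPM in the granule-like class and 92.4 to 116 CPM in the others. After each nucleus was thinned to 2000 UMIs, Sv2c had a UMI in 27.4% and 21.1% of dopaminergic-like nuclei, against 4.68% in both libraries of glutamatergic-like nuclei and 0% and 2.11% of astrocyte-like nuclei (0% in both libraries in the larger of their 2 clusters), a class that should lack these vesicles. Without thinning these shares were 47.5% and 57.9%, 9.85% and 14.8%, and 0.254% and 3.02%, at median depths of 5475 and 10798.5, 5616.5 and 9418, and 1936 and 3113.5 UMIs.

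**Figure D2:**
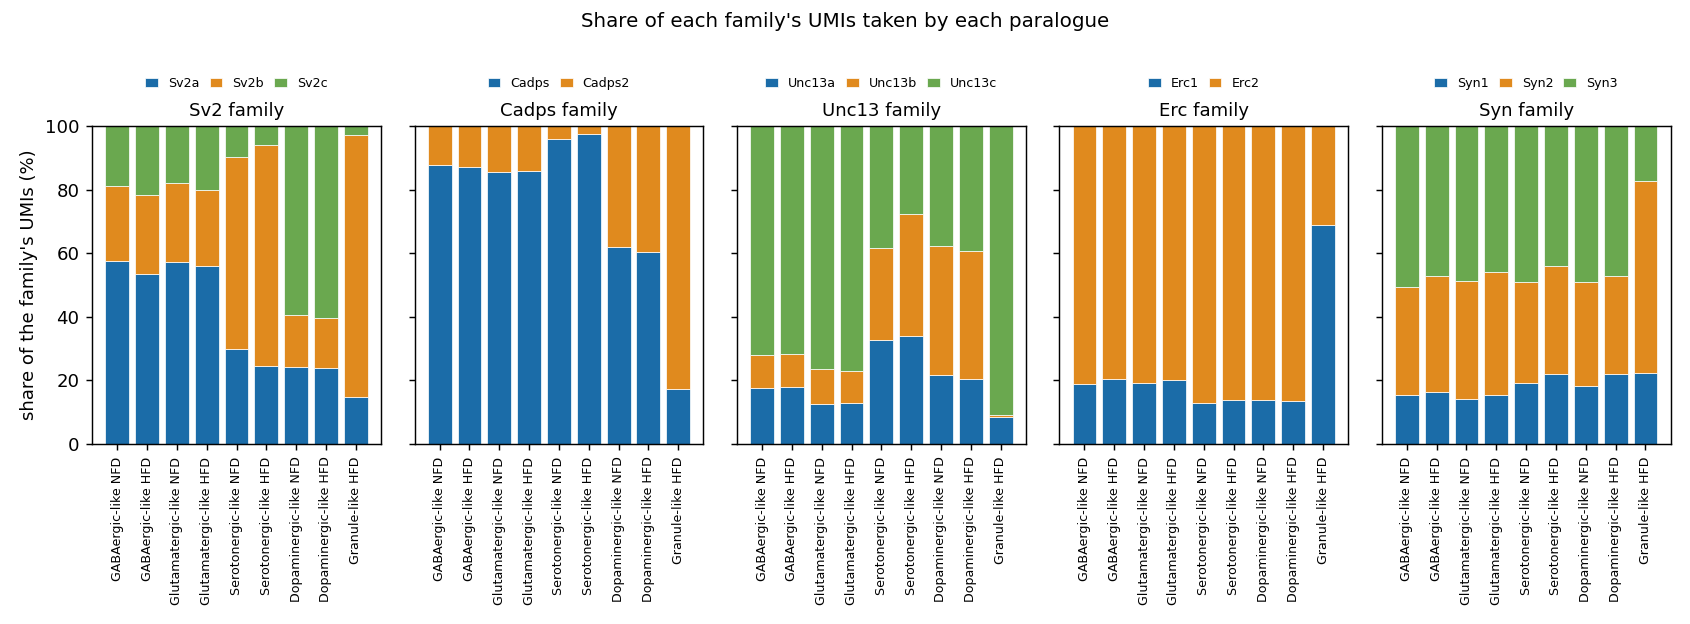
Share of each family's UMIs (y axis, percent) taken by each paralogue (colours) in each class and library (x axis), for the SV2, CAPS, Munc13, ELKS and synapsin families. The leading SV2 gene is Sv2a in GABAergic-like and glutamatergic-like, Sv2b in serotonergic-like and granule-like and Sv2c in dopaminergic-like nuclei.

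The CAPS genes, which prime dense-core vesicles, differed between the 2 monoaminergic classes. Cadps2 (ENSMUSG00000017978) stood at 530 and 581 CPM in dopaminergic-like nuclei and at 51.8 and 32.1 CPM in serotonergic-like nuclei, a log2 ratio of -3.36 (-3.66 to -3.06) in NFD. The glutamatergic-like class lay between them, at 166 and 177 CPM, as did the GABAergic-like class, at 159 and 172 CPM. Cadps (ENSMUSG00000054423) varied far less, from 865 and 890 CPM in dopaminergic-like to 1260 and 1382 CPM in serotonergic-like nuclei. Cadps2 thus took 38.0% and 39.5% of the family's UMIs in the dopaminergic-like class, 12.3% to 14.3% in the GABAergic-like and glutamatergic-like classes, and 3.95% and 2.27% in the serotonergic-like class. In granule-like nuclei it stood at 2076 CPM and took 82.6% (81.4 to 83.8), while Cadps was lower, at 437 CPM, a log2 ratio of -1.30 (-1.42 to -1.19) to the glutamatergic-like class. After thinning, Cadps2 had a UMI in 96.9% of granule-like, 49.1% and 53.5% of dopaminergic-like and 13.4% and 6.06% of serotonergic-like nuclei. The share was 9.78% and 26.6% in astrocyte-like nuclei, and 6.62% and 8.59% in the larger of the 2 astrocyte-like clusters. The serotonergic-like level in HFD is therefore read as background, and no ratio to the dopaminergic-like class is given for it. Unthinned, the shares were 92.9%, 66.9% and 81.6%, 24.0% and 24.1%, and 10.1% and 30.9% in the same order. Thinning left out 553 of the 812 granule-like nuclei, 210 NFD and 61 HFD astrocyte-like nuclei, and at most 6 nuclei of a monoaminergic class in a library.

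The Munc13 priming factors also changed. Unc13c (ENSMUSG00000062151), the paralogue best known from cerebellar granule cells, took 71.8% to 77.0% of the family's UMIs in GABAergic-like and glutamatergic-like nuclei and 91.0% in granule-like nuclei, but 27.5% to 39.2% in the monoaminergic classes. Its level was 558 and 528 CPM in the glutamatergic-like class against 165 and 103 CPM in the serotonergic-like and 171 and 165 CPM in the dopaminergic-like class. Unc13b (ENSMUSG00000028456) was higher where Unc13c was lower, at 185 and 170.0 CPM in dopaminergic-like and 124.5 and 144.5 CPM in serotonergic-like nuclei against 78.7 and 69.2 CPM in the glutamatergic-like class. In the granule-like class Unc13b stood at 6.99 CPM (11 UMIs), a log2 ratio of -3.31 (-4.31 to -2.46). Unc13a (ENSMUSG00000034799), the general priming factor of central synapses, was called higher in serotonergic-like nuclei, at 141 and 127 CPM against 92.5 and 88.4 CPM, and in granule-like nuclei, at 130 CPM, but not in dopaminergic-like nuclei, at 98.8 and 86.1 CPM. Both monoaminergic classes thus held more Unc13b and less Unc13c than the glutamatergic-like class in both libraries.

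At the active zone, Rims1, Pclo and Erc2 were called higher in serotonergic-like than in glutamatergic-like nuclei, and the ELKS genes went opposite ways in granule-like nuclei. Erc2, which encodes an active-zone form of ELKS, stood at 1874 and 2002 CPM in serotonergic-like and 1711 and 1834 CPM in dopaminergic-like nuclei against 1004 and 1026 CPM in the glutamatergic-like class, and was lower in granule-like nuclei, at 346 CPM. Erc1, the more widely used ELKS gene, moved the other way there, at 773 CPM against 257 CPM in the glutamatergic-like class, and took 69.1% (66.8 to 71.2) of the family's UMIs against 12.8% to 20.3% in the other neuron classes. Pclo, the piccolo scaffold, was called higher in serotonergic-like nuclei, with a log2 ratio to the glutamatergic-like class of 0.72 and 0.95, and was not called in dopaminergic-like nuclei, at -0.15 and -0.06. Bsn, which encodes bassoon, was not called in either monoaminergic class and was called higher in granule-like nuclei, at 369 CPM against 104 CPM. Rims1, a RIM scaffold that links channels to vesicles, was called higher in serotonergic-like nuclei, at 1590.0 and 1874 CPM against 1219 and 1338 CPM, and reached 4281 CPM in granule-like nuclei. Rims2, its paralogue, was called in the granule-like class and in no other of these comparisons, at 2119 CPM against 1242 CPM, so Rims1 took 66.9% of RIM UMIs there against 45.7% to 59.1% elsewhere.

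Among the calcium sensors, Syt1, the sensor of fast release, had its highest level in serotonergic-like nuclei. It stood at 4067 and 4836 CPM there, 2142 and 2543 CPM in dopaminergic-like nuclei, 2971 CPM in granule-like nuclei and 1318 and 1364 CPM in glutamatergic-like nuclei, and the intervals of these classes did not overlap within a library. After thinning it had a UMI in 99.2% and 100% of serotonergic-like nuclei and 79.3% and 74.98% of glutamatergic-like nuclei, against 32.1% and 32.9% of astrocyte-like nuclei, or 14.0% and 10.4% in the larger astrocyte-like cluster alone (unthinned for the 3 classes 100% in both libraries, 90.5% and 90.04%, and 21.8% and 33.9%). Syt7, a slow high-affinity sensor, was lower in the serotonergic-like class, at 33.3 and 26.1 CPM against 87.6 and 86.4 CPM in the glutamatergic-like and 103 and 128 CPM in the dopaminergic-like class. Syt2, the fast sensor of many hindbrain and cerebellar synapses, was called lower in serotonergic-like nuclei, at 11.9 and 5.02 CPM against 26.9 and 29.1 CPM, and higher in granule-like nuclei, at 146 CPM. Syt4, a vesicle synaptotagmin that does not bind calcium in the usual way, was called in none of the class comparisons and lay between 50.8 and 81.0 CPM in these neurons. Of the complexin genes, Cplx2 was called higher in serotonergic-like (70.8 and 83.0 CPM) and granule-like nuclei (106 CPM) than in glutamatergic-like nuclei (32.0 and 29.3 CPM), while Cplx1 stayed between 22.8 and 39.7 CPM and was called nowhere, so that Cplx2 took 75.6% and 77.7% of complexin UMIs in serotonergic-like nuclei against 57.2% and 50.9% in glutamatergic-like nuclei.

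Of the SNARE genes, Snap25 was called higher in 3 classes. It stood at 782 and 901 CPM in serotonergic-like, 763 and 810 CPM in dopaminergic-like and 1766 CPM in granule-like nuclei against 541 and 582 CPM in glutamatergic-like nuclei. Vamp2, the main synaptobrevin of forebrain synapses, was called only in granule-like nuclei, at 52.7 CPM against 26.5 CPM. Vamp1, its paralogue, was low in every class at 7.36 to 19.3 CPM in neurons, below the 68.7 and 42.4 CPM of astrocyte-like nuclei, so no expression by neurons is read from it. After thinning, Vamp2 had a UMI in 7.35% and 8.59% of nuclei of the larger astrocyte-like cluster. The shares were 6.58% and 6.45% in GABAergic-like and 5.38% and 5.17% in glutamatergic-like nuclei, so the same limit holds for Vamp2 in these 2 classes. Stx1a, the plasma-membrane syntaxin, had 3 UMIs in granule-like nuclei (1.91 CPM), a log2 ratio to the glutamatergic-like class of -4.10 with a counting interval of -6.38 to -2.54. In the other neurons it stood at 18.4 to 45.2 CPM. Stxbp5 encodes tomosyn, a brake on SNARE assembly, and it was called in none of the comparisons, at 192 to 250 CPM in all of these neuron classes.

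Of the 6 Rab3 and synapsin genes, Rab3b, Rab3c and Syn3 were called in at least 1 class comparison. Rab3c, a vesicle GTPase, was called higher in dopaminergic-like than in glutamatergic-like nuclei, at 477 and 506 CPM, a log2 ratio of 0.73 (0.60 to 0.86) and 0.73 (0.61 to 0.85), and took 86.1% to 94.6% of the family's UMIs in these classes. Rab3b was called lower in serotonergic-like nuclei, at 9.98 and 7.36 CPM (21 and 22 UMIs), again without a background level set. It had 1 UMI in granule-like nuclei, a log2 ratio of -5.03 with a counting interval of -10.34 to -2.54. Rab3a, the most studied Rab3 gene, was called in no class comparison and lay between 6.12 and 28.7 CPM. Syn1 and Syn2, synapsins that tether vesicles to one another, were called in none of the comparisons. After thinning, Syn2 had a UMI in 37.5% and 48.5% of nuclei of the larger astrocyte-like cluster. The shares were 43.2% and 47.6% in GABAergic-like and 50.4% and 51.0% in glutamatergic-like nuclei, so Syn2 is not particular to neurons here. Syn3, the third synapsin, was called lower in granule-like nuclei, at 129 CPM against 478 CPM, which left Syn2 with 60.6% (57.7 to 63.4) of synapsin UMIs there against 30.9% to 38.5% elsewhere.

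The class averages hid differences between clusters for a few members. In HFD, Cadps2 ran from 72.5 CPM in cluster 11, led by genes that include Prox1 and Calcr, to 357 CPM in cluster 6, led by genes that include Satb1 and Reln, a range of 4.93-fold within the GABAergic-like class. Unc13c followed with the same ends, 165 and 782 CPM, or 4.75-fold. The NFD library gave 62.5 and 260 CPM for Cadps2 and 177 and 762 CPM for Unc13c in these 2 clusters, so both libraries ordered them alike. In the glutamatergic-like class Syt2 ran from 6.13 CPM in cluster 12 to 60.0 CPM in cluster 17, and Unc13b from 22.1 CPM in cluster 12 to 112 CPM in cluster 9. Cluster 17, whose leading genes include the noradrenaline transporter Slc6a2, had Sv2c at 100.4 and 97.5 CPM against 14.5 to 33.6 CPM in the other glutamatergic-like clusters, and Sv2c took 48.8% and 45.5% of its SV2 UMIs. Rab3c, called higher in the GABAergic-like class, was not uniform either, since cluster 12 of the glutamatergic-like class stood at 518 and 474 CPM, within the range of the GABAergic-like clusters (286 to 557 CPM).

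**Figure D3:**
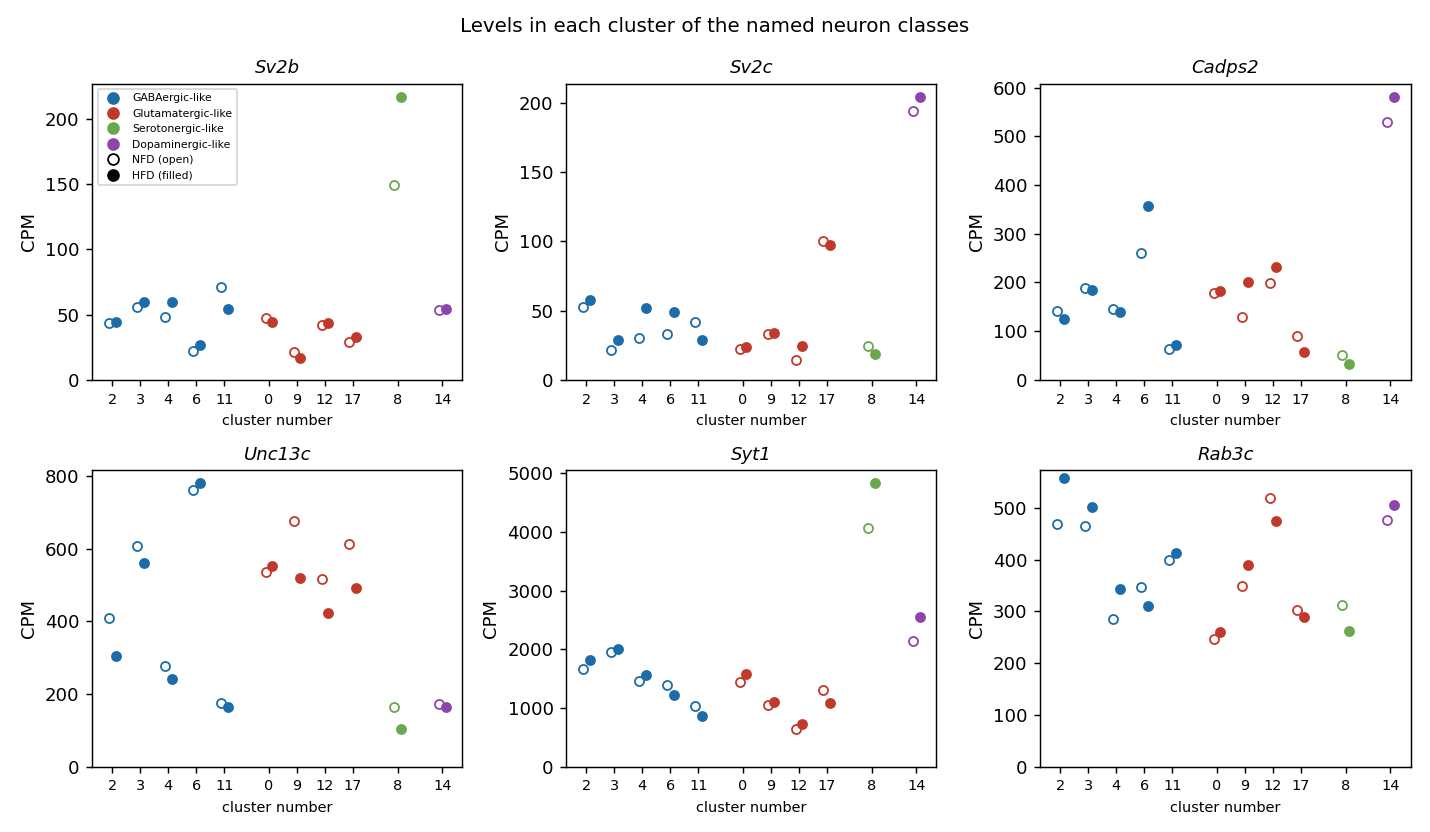
CPM (y axis, from 0) of 6 release genes in each cluster (x axis) of the named neuron classes, with open points for NFD and filled points for HFD. Sv2b is highest in the serotonergic-like cluster 8, Sv2c and Cadps2 in the dopaminergic-like cluster 14, and Unc13c ranges from 165 to 782 CPM among the GABAergic-like clusters in HFD.

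Other genes of the pathway were read from a wider list of 56 release and vesicle genes. In the GABAergic-like against the glutamatergic-like class, 51 had enough UMIs, and 1 was called higher and 3 lower (2.67% and 3.35% of all genes). Stx3, a syntaxin, was the higher one, with a log2 ratio of 0.48 in NFD and 0.45 in HFD. The synaptotagmin genes Syt10 (-2.53 and -2.68) and Syt6 (-1.34 and -1.87) and the calcium sensor gene Doc2b (-0.88 and -1.41) were lower. Syt10 was among the leading genes of cluster 12 of the glutamatergic-like class and Syt6 among those of the unnamed cluster 1. How these genes spread over the other glutamatergic-like clusters is not given. In the serotonergic-like class 3 were called higher and 8 lower than in the glutamatergic-like class (4.26% and 7.25% of all genes), with Syt10 (-2.92 and -3.38), Doc2b (-1.51 and -3.00), Syt6 (-1.59 and -2.15) and Syt12 (-1.79 and -1.59) furthest from 0. In the dopaminergic-like class 3 were called higher and 6 lower (3.34% and 4.04% of all genes), where Syt9, a further synaptotagmin gene, was higher (1.67 and 1.17). Syt6 (-2.12 in NFD, with no finite ratio in HFD), Syt10 (-1.65 and -0.95) and the vesicle protein gene Synpr (-1.38 and -0.88) were lower there. Rimbp2, which encodes a RIM-binding protein, was higher in the serotonergic-like than in the dopaminergic-like class (1.84 and 1.96) and lower in the granule-like than in the glutamatergic-like class (-4.55 in HFD). In the granule-like class 16 were called higher and 9 lower (13.7% and 22.9% of all genes).

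Between the diets, no member was called in the summed counts of the GABAergic-like class in either direction, nor in those of the glutamatergic-like class. By the same rule 0.567% of 12868 genes were called higher in HFD and 1.84% lower in the GABAergic-like class, and 0.542% and 1.92% of 11994 genes in the glutamatergic-like class. The median log2 ratio of HFD to NFD over the 31 genes was 0.03 in the GABAergic-like class (from -0.42 to 0.20) and 0.04 in the glutamatergic-like class (from -0.47 to 0.31), beside -0.05 over all genes in both. The ratio furthest from 0 was that of Rab3a in both classes. Rab3a went from 28.7 to 21.4 CPM in GABAergic-like nuclei, a log2 ratio of -0.42 (-0.61 to -0.23), and from 24.7 to 17.8 CPM in glutamatergic-like nuclei, a log2 ratio of -0.47 (-0.72 to -0.22). With each nucleus weighted equally, 1 member was called lower in the GABAergic-like class, and Rab3a then stood at -0.52. Syt1 stood at 1584 and 1599 CPM in GABAergic-like nuclei, a log2 ratio of 0.01 (-0.01 to 0.04), and Rims2 at 1301 and 1299 CPM, a log2 ratio of 0.00 (-0.03 to 0.02). These intervals are narrow because the genes were well counted, and how far 2 libraries of the same diet would differ is not known from these data. The Syt1 ratio pools clusters that went opposite ways. It was 0.13 (0.08 to 0.17) in cluster 2 and 0.10 (0.04 to 0.15) in cluster 4. It was -0.18 (-0.25 to -0.11) in cluster 6 and -0.25 (-0.34 to -0.16) in cluster 11, and none of these was called. Cluster 2 held 1089 NFD and 492 HFD nuclei, so class ratios also follow the mix of clusters.

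Single clusters of these classes held 5 calls. In cluster 2, a GABAergic-like cluster, Rab3a went from 164 to 80 UMIs (29.97 to 16.5 CPM), a log2 ratio of -0.86 (-1.27 to -0.47), and Unc13c from 409 to 305 CPM, a log2 ratio of -0.42 (-0.52 to -0.33). In cluster 4, which also carries Slc17a6, Sv2c went from 87 to 234 UMIs (30.6 to 52.0 CPM), a log2 ratio of 0.77 (0.41 to 1.14), and from 15.2% to 24.1% of SV2 UMIs. Among glutamatergic-like clusters, Cadps2 was called higher in cluster 9, from 129 to 201 CPM, a log2 ratio of 0.64 (0.38 to 0.91), and Snap25 in cluster 17, from 707 to 1121 CPM, a log2 ratio of 0.66 (0.54 to 0.79). These are 1 higher and 2 lower of 144 pairs of a member and a GABAergic-like cluster with enough UMIs, where 0.475% and 1.07% of 38562 such pairs over all genes were called, and 2 higher and 0 lower of 98 glutamatergic-like pairs, where 0.907% and 1.22% of 24930 were called.

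**Figure D4:**
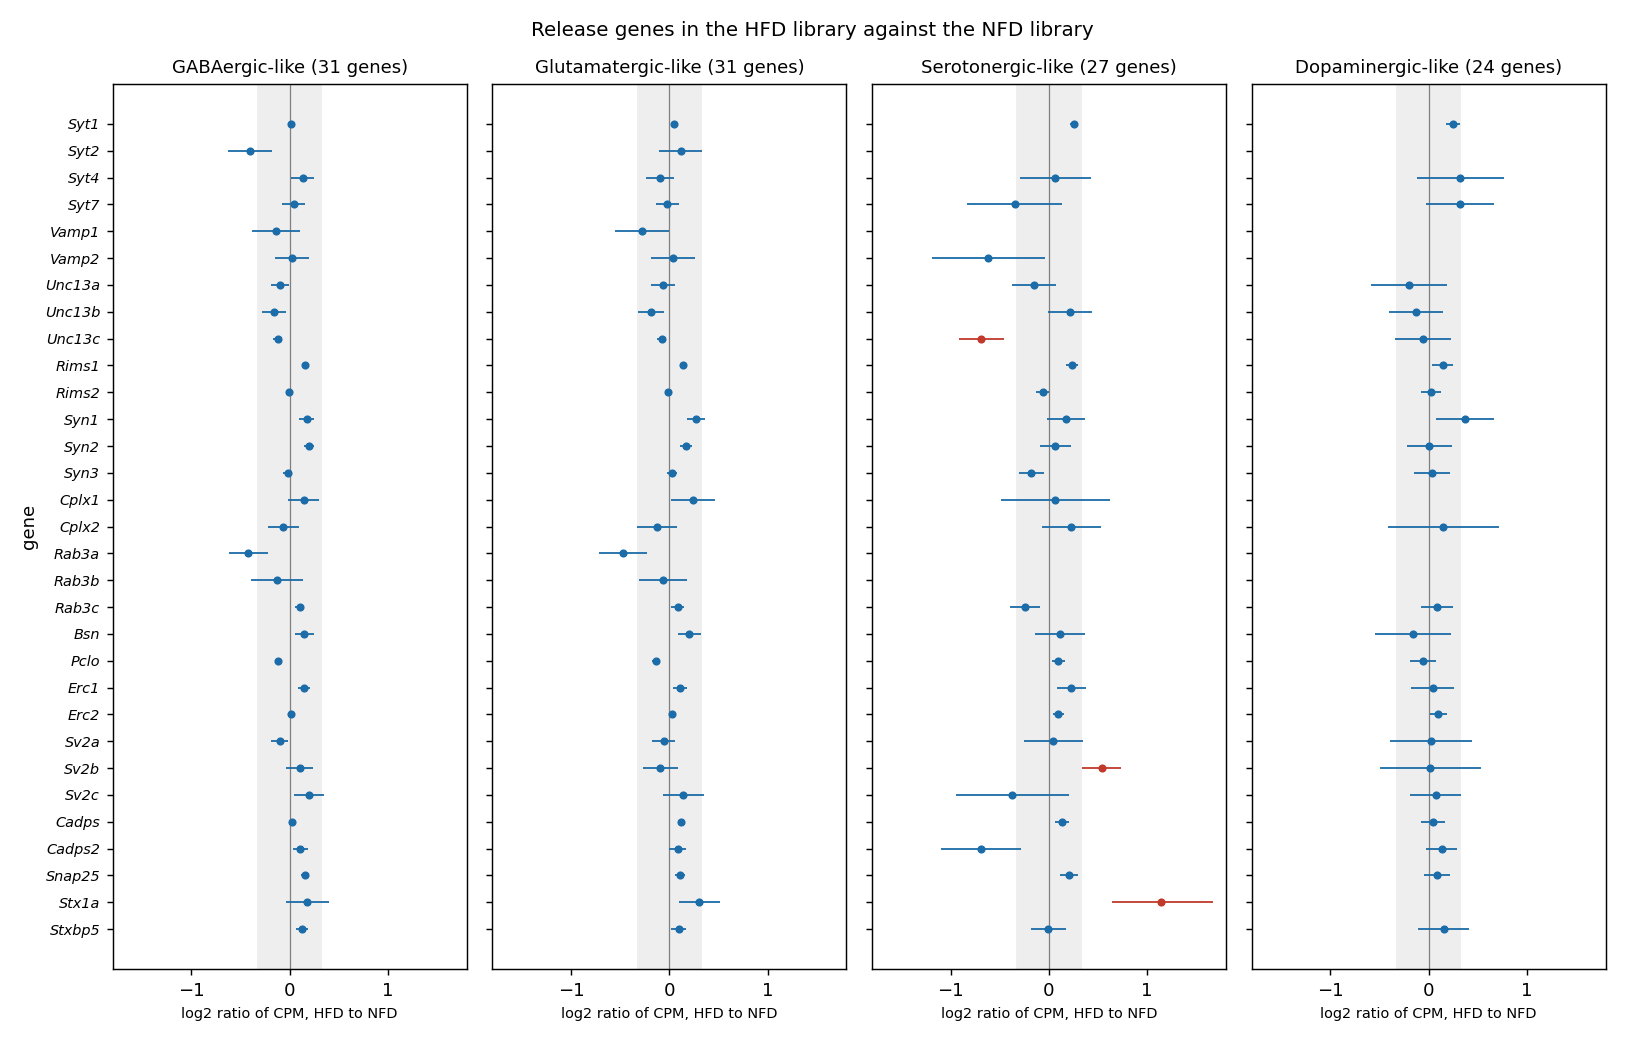
Each release gene (rows) in 4 classes, with its level in HFD over that in NFD as a log2 ratio (x axis), as points with exact 95% counting intervals, red where the interval lies wholly beyond the grey band (0.32 on either side of 0). No point is red in the GABAergic-like, glutamatergic-like and dopaminergic-like classes, and Unc13c, Sv2b and Stx1a are red in the serotonergic-like class.

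Within families, the shares in GABAergic-like nuclei moved by a few percentage points. Sv2a went from 57.7% (55.9 to 59.5) to 53.4% (51.9 to 55.0) of SV2 UMIs, Syn3 from 50.7% (49.9 to 51.5) to 47.1% (46.4 to 47.8) of synapsin UMIs and Rab3a from 6.33% (5.77 to 6.93) to 4.52% (4.12 to 4.95) of Rab3 UMIs, and these intervals do not overlap. Sv2c went from 18.9% to 21.5% of SV2 UMIs, Rims1 from 45.7% to 48.3% of RIM UMIs and Syn2 from 34.0% to 36.6% of synapsin UMIs. Bsn went from 9.02% to 10.7% of bassoon and piccolo UMIs and Erc1 from 18.9% to 20.3% of ELKS UMIs. Rab3c went from 90.6% to 92.8% of Rab3 UMIs and Syt2 from 1.23% to 0.92% of synaptotagmin UMIs. The intervals of these genes do not overlap either. Those of Unc13c, from 71.9% to 71.8% of Munc13 UMIs, do. These moves were not particular to GABAergic-like nuclei. In the glutamatergic-like class Rab3a (7.41% to 5.20%), Rab3c (86.1% to 88.8%), Rims1 (49.4% to 51.9%), Syn3 (48.8% to 45.9%) and Bsn (9.26% to 11.4%) moved the same way. Sv2a, Sv2c, Syn2 and Erc1 did so with intervals that overlap, and Syt2 went from 1.79% to 1.89%. How often shares in other gene families move this far is not given. By gene span, the 17 members over 100 kb had a median log2 ratio of 0.03 in GABAergic-like nuclei, beside 0.03 over 2368 genes of that span, and the 5 under 20 kb one of -0.06, beside -0.14 over 4885 genes. The 9 members from 20 to 100 kb had a median of 0.14, beside -0.04 over 5615 genes. Of the wider list, 0 of 51 genes were called in either direction in the GABAergic-like and in the glutamatergic-like class, and the ratios furthest above 0 were 0.41 (0.32 to 0.50) for Stxbp6, a syntaxin-binding protein gene, in the first and 0.42 (0.24 to 0.61) for Syt6 in the second.

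Among the sums over a class, members were called between the diets in the serotonergic-like class alone. Of the 27 members with enough UMIs, 2 were called higher in HFD and 1 lower, where 1.22% and 1.81% of 6414 genes were called. Stx1a went from 43 to 135 UMIs (20.4 to 45.2 CPM), a log2 ratio of 1.14 (0.64 to 1.67). Sv2b went from 315 to 649 UMIs (149.7 to 217 CPM), a log2 ratio of 0.54 (0.34 to 0.74), and Unc13c from 348 to 307 UMIs (165 to 103 CPM), a log2 ratio of -0.69 (-0.91 to -0.46). Sv2b was the SV2 gene called higher in this class and Unc13c the Munc13 gene called lower, so both lay farther from the glutamatergic-like level in HFD. Of genes that are not members, the serotonin transporter gene Slc6a4 went from 614 to 800 CPM and Tph2 from 1611 to 1879 CPM, while Slc17a6 went from 21.4 to 8.70 CPM. The nuclei of this class also had medians of 5892.5 UMIs in NFD and 16639 in HFD, the widest depth gap among the neuron classes named here. With each nucleus thinned to 2000 UMIs, which leaves fewer counts, the log2 ratios were 2.21 for Stx1a, 0.69 for Sv2b and -1.28 for Unc13c, and neither Stx1a nor Sv2b was called. Without Malat1 and mitochondrial genes in the totals, 1 member instead of 2 was called higher, with Sv2b at 0.52. The part of RNA from other neurons in these 3 results was not tested. In the dopaminergic-like class, none of 24 members was called in either direction (0.815% and 0.629% of 4293 genes), and of the wider list Syt5, a synaptotagmin gene, was called lower, at -0.98 (-1.57 to -0.40).

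Release genes were also counted in glia, more so in HFD. The 31 genes held 0.422% of UMIs in astrocyte-like nuclei of NFD and 0.721% in HFD, 0.248% and 0.535% in microglia-like nuclei, and 0.377% and 0.856% in oligodendrocyte-like nuclei. Syt1 went from 305 to 1368 CPM in oligodendrocyte-like nuclei and Cadps2 from 95.4 to 590.1 CPM. The 8 granule cell markers moved beside them, from 51.0 to 499 CPM summed in astrocyte-like, from 105 to 256 CPM in microglia-like and from 89.0 to 646 CPM in oligodendrocyte-like nuclei, and Gabra6 had 0 UMIs in all 3 glial classes of NFD. The smaller of the 2 astrocyte-like clusters, cluster 19, had medians of 5751 and 7796 UMIs and also carried transmitter markers, with 119 CPM of the GABAergic and 77.9 CPM of the glutamatergic markers over both libraries against 20.0 and 7.40 CPM in cluster 7. After thinning, Cadps2 had a UMI in 66.2% of HFD nuclei of cluster 19 and 8.59% of those of cluster 7, so the astrocyte-like values include RNA of a cluster with neuronal markers. Cadps2 had 2.77 UMIs per Gabra6 UMI in granule-like nuclei of HFD, 3.60 in astrocyte-like, 4.53 in microglia-like and 3.06 in oligodendrocyte-like nuclei, but 53.5 in GABAergic-like and 46.9 in glutamatergic-like nuclei.

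In neurons the granule cell markers stood at a lower level than in glia. Their sum went from 6.04 to 14.2 CPM in GABAergic-like nuclei, from 9.85 to 17.0 CPM in glutamatergic-like nuclei and from 7.13 to 11.4 CPM in serotonergic-like nuclei, and from 24.5 to 18.2 CPM in dopaminergic-like nuclei. If each Gabra6 UMI in a class came with granule-like RNA in the granule-like class's own proportions, this RNA would hold from 0.0216% (Rab3b) to 5.17% (Cadps2) of a member's HFD UMIs in GABAergic-like nuclei, with a median of 0.538% over the 31 genes. The highest value in any neuron class was 11.5%, for Cadps2 in serotonergic-like nuclei. In oligodendrocyte-like nuclei the same count gives a median of 55.9%, in astrocyte-like nuclei 36.3% and in microglia-like nuclei 18.2%. The source of the remaining UMIs in glia was not tested. The levels of release genes in glia are not read as expression by glia.

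**Figure D5:**
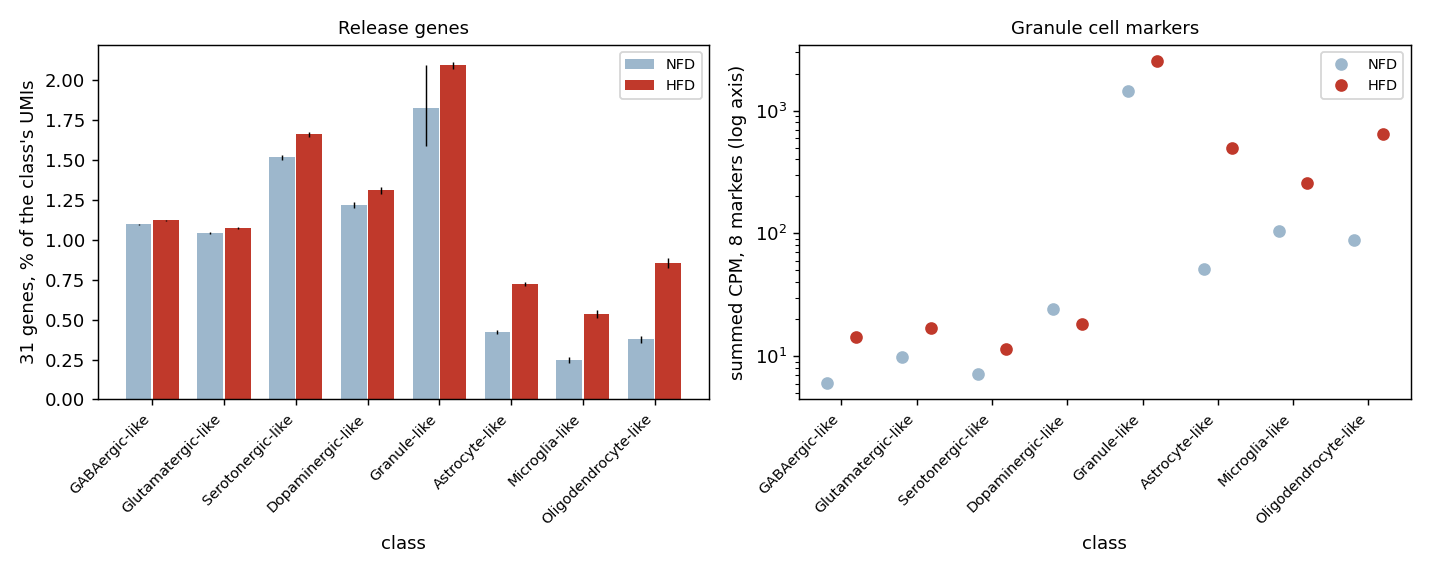
Left, UMIs of the 31 release genes as a percent of all UMIs of a class (bars from 0, with exact 95% counting intervals), and right, the summed CPM of 8 granule cell markers (log axis), by class and library. Both are higher in HFD than in NFD in astrocyte-like, microglia-like and oligodendrocyte-like nuclei, while the release genes differ little in GABAergic-like (1.10% and 1.12%) nuclei.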

How the data were processed

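Nuclei of the vlPAG were profiled in 1 droplet library per diet. The deposited matrices hold raw UMI counts per gene and barcode, made by the authors with Cell Ranger 4.0.0 on GRCm38 per the file headers. The sources read here do not say if reads from introns entered these counts. The members and gene lists were chosen with earlier results of these data known. Nuclei with over 500 UMIs and under 20% mitochondrial counts were clustered with Seurat 5.3.0 on 1986 variable genes without the release genes, using 20 principal components. Clusters were named from fixed markers. The doublet caller marked 1 nucleus in NFD and 0 in HFD and was not used, so doublets were not removed. The highest 6% of doublet scores were removed as an alternative. Counts were summed by class and library and compared with exact counting intervals in scipy 1.17.1, and the code was tested on simulated data. No test between diets was made. All 31 members were described, and of the wider list up to 4 called genes furthest from 0 with at least 200 UMIs were named per class comparison. Stxbp6, Syt6 and Syt5 in the diet comparison, and clusters named by range, were chosen after their values were seen. Other clusterings, thresholds, filters, weights and scalings were alternatives. Leaving out a replicate was not possible with 1 library per diet.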

Additional observations from a re-analysis of the deposited data

Results flagged for a closer look

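For 3 release genes the counting interval of the log2 ratio of HFD to NFD lay above 0 in at least 1 neuron class and below 0 in another, among classes where the gene had at least 100 UMIs. The difference between the classes was not tested, and the share of all genes that meet this rule is not given. Rab3a, below 0 in the GABAergic-like and glutamatergic-like classes, is left out because its dopaminergic-like interval, above 0, rests on 7 and 22 UMIs. Rab3c, a vesicle GTPase gene, had a log2 ratio of 0.102 in the GABAergic-like class, 0.084 in the glutamatergic-like class and -0.25 in the serotonergic-like class. Pclo, the piccolo scaffold gene, had -0.12, -0.14 and 0.10 in the same order. Cadps2, a gene of dense-core vesicle priming, had 0.106, 0.0874 and -0.69, the last with an HFD level that was read as background above. None of these 9 class ratios was called, and each library is 1 pool of mice. Clusters within a class did not all share its sign. Cadps2 stood at 0.46 in cluster 6 and -0.17 in cluster 2 of the GABAergic-like class. It stood at 0.64 in cluster 9 and -0.67 in cluster 17 of the glutamatergic-like class. Rab3c stood at -0.16 in cluster 6.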

How the results depend on the processing

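Of 253 counts of called members, of called genes of the wider list and of families, 217 stayed within 1.5 times the main count under the alternatives and 36 moved. Of the other values, 114 of 791 called ratios between classes, 257 of 2268 paralogue shares, 10 of 341 GABAergic-like and 3 of 33 called serotonergic-like diet ratios moved beyond their counting interval, and 0 reversed. Each nucleus weighted equally gave 1 member lower in HFD in the GABAergic-like class, 2 lower in the serotonergic-like class and 1 higher in the dopaminergic-like class, and 3 higher and 0 lower in GABAergic-like than in glutamatergic-like nuclei. Thinning to 2000 UMIs gave 0 members higher in HFD in the serotonergic-like class, 0 lower in GABAergic-like than in glutamatergic-like nuclei, 4 higher and 3 lower in serotonergic-like than in glutamatergic-like nuclei, 3 higher and 2 lower than in dopaminergic-like nuclei, and 4 lower in granule-like nuclei. A minimum of 500 UMIs gave 1 higher in HFD in the serotonergic-like class and 0 lower in GABAergic-like than in glutamatergic-like nuclei. It gave 3 lower in serotonergic-like than in glutamatergic-like and 2 lower than in dopaminergic-like nuclei. A 1.5-fold limit gave 1 higher and 0 lower in HFD in the serotonergic-like class, and scaling without Malat1 and mitochondrial genes gave 1 higher. A 2-fold limit between classes gave 0 and 0 for GABAergic-like against glutamatergic-like, 2 higher and 3 lower for serotonergic-like and 3 higher for dopaminergic-like against glutamatergic-like nuclei, and 1 higher for serotonergic-like against dopaminergic-like nuclei. With 30 principal components, cluster resolution 1 or the highest 6% of doublet scores removed, 2 members were lower in HFD in the serotonergic-like class. For GABAergic-like against glutamatergic-like nuclei, 30 components gave 2 higher and 2 lower, resolution 1 gave 2 lower, a 3-fold transmitter threshold gave 2 higher and 3 lower, all 2000 variable genes gave 2 lower, and leaving out cluster 4, chosen after seeing the data, gave 2 and 2. The 3-fold threshold and all 2000 variable genes gave 2 lower in dopaminergic-like than in glutamatergic-like nuclei. Fewer counts remain after thinning and under the count minimum, and for the other moves the cause was not tested. No paired analysis was possible because each diet has 1 library. Depth limits low genes: of the 31, 27 in the serotonergic-like and 24 in the dopaminergic-like class reached 100 UMIs over both libraries.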
